A study of Mus musculus with 2 samples.

Results

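The Tox genes were examined as putative targets of distal enhancers in the developing mouse neocortex. The library came from Swiss Webster embryos at day 14.5 (E14.5), whose dorsal cerebral wall was dissected for p300 ChIP-seq, and chromatin of that tissue gave the input control. A single ChIP and a single input library were made, without replicate, treatment or genetic change, so no comparison between samples was possible and every value below is a description without a test. The dissected wall holds progenitors, migrating cells and young neurons together, and a peak cannot be assigned to any of these populations. The deposited list gives the position of 6629 p300 peaks on the mm9 assembly, without a score or a read count, so the depth behind a single peak is not known from it.

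The 3 genes Tox, Tox2 and Tox3 were chosen by the measured positions themselves, because a dense group of p300 peaks lies around Tox3. A peak was given to a gene when its midpoint lay inside the gene body or within 1 Mb of the transcription start site (TSS), taken from the GENCODE vM1 transcript with the longest coding sequence. This rule gave 38 of the 6629 peaks to the family, of which 25 lay at Tox3, 10 at Tox2 and 3 at Tox. No peak was shared between the genes, which are on chromosomes 8, 2 and 4.

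The Tox proteins are nuclear proteins with a single HMG box, a fold that binds and bends DNA, and they act as regulators of transcription. Tox is best known from the thymus and from T cells, where it is needed for development of the CD4 lineage, and it is also expressed in neural progenitors of the embryonic cortex. Tox2 is a close relative studied mainly in lymphoid cells, and Tox3 has been described as a co-regulator of calcium-dependent transcription in neurons. The p300 protein is an acetyltransferase brought to active enhancers by transcription factors, so a p300 peak marks a candidate enhancer and does not show which gene it acts on.

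The middle 300 bases of 6 peaks are given here to show the sequence under the positions that follow. They are the Tox3 peak nearest its TSS, the widest Tox3 peak, the closest pair of neighbouring Tox3 peaks, and the peak nearest the TSS of Tox and of Tox2. All are read from the plus strand of the NCBIM37 (mm9) assembly, 5′ to 3′, and the capitals mark matches on either strand to the short motifs described further on.
Tox3, peak 6003, upstream, chr8:92916669-92916968: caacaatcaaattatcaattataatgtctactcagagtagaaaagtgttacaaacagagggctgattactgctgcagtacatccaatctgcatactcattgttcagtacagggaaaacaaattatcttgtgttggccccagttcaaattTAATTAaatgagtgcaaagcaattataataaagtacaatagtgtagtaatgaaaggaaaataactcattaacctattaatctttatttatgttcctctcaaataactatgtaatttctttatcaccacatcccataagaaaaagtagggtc
Tox3, peak 6011, the widest, chr8:93181086-93181385: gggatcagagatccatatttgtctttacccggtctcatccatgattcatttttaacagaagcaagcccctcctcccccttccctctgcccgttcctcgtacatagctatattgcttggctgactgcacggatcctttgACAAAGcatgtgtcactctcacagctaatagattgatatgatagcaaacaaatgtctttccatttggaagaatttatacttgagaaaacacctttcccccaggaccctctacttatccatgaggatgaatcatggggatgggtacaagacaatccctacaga
Tox3, peak 6005, first of the closest pair, chr8:93016613-93016912: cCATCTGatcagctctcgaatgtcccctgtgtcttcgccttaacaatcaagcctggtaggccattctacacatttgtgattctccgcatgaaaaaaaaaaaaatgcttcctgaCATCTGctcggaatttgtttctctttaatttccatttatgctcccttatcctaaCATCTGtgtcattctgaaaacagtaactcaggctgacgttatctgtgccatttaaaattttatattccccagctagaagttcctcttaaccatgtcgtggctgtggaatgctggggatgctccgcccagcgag
Tox3, peak 6006, second of the closest pair, chr8:93020243-93020542: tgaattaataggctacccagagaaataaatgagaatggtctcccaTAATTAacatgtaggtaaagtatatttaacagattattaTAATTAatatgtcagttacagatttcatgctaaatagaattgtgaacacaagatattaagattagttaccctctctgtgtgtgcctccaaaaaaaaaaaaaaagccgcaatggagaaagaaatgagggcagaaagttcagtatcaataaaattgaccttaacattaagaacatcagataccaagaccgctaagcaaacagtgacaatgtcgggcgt
Tox, peak 4123, intron 1, chr4:6840542-6840841: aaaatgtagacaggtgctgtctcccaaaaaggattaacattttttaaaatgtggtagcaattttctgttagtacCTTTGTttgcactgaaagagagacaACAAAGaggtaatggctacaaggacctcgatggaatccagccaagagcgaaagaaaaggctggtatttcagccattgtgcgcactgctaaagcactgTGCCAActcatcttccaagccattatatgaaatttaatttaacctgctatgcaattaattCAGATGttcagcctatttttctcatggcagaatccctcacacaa
Tox2, peak 3672, intron 1, chr2:163057569-163057868: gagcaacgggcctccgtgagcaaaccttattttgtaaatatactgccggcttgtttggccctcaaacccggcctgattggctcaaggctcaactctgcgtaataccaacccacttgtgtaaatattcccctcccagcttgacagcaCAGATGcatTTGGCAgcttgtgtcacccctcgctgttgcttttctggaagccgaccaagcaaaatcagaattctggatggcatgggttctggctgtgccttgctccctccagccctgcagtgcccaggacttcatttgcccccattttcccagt

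Of these windows, the one from peak 6003 held a single match, to the homeodomain core TAATTA, and had a GC content of 31.3%. In these windows the closest pair held different motifs, while over the whole peaks all 4 kinds of motif found in peak 6005 (both E boxes, the Nfi arm and the Sox motif) were also found in peak 6006. The window of peak 6005 held 3 copies of the E box CAGATG, read as CATCTG on the plus strand, and that of peak 6006 held 2 copies of TAATTA. The Tox window held 4 matches, namely 2 to the Sox motif ACAAAG, 1 to the Nfi arm TTGGCA and 1 to CAGATG, while the Tox2 window held CAGATG and TTGGCA with 3 bases between them.

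Tox3 (ENSMUSG00000043668, chr8:92771013-92872151, minus strand) has 7 exons in its only annotated transcript. Its 25 peaks were spread over both flanks, with 15 upstream of the TSS and 10 downstream. Of these, 2 lay inside the gene, 4 within 100 kb of the TSS and 15 within 500 kb. The nearest peaks on either side were at similar distances, peak 6003 at 44.7 kb upstream and peak 6002 at 45.9 kb downstream. Together the peaks covered 32.4 kb, and the window held 12.5 peaks per Mb against an average of 2.59 per Mb of assembled sequence.

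**Figure D1:**
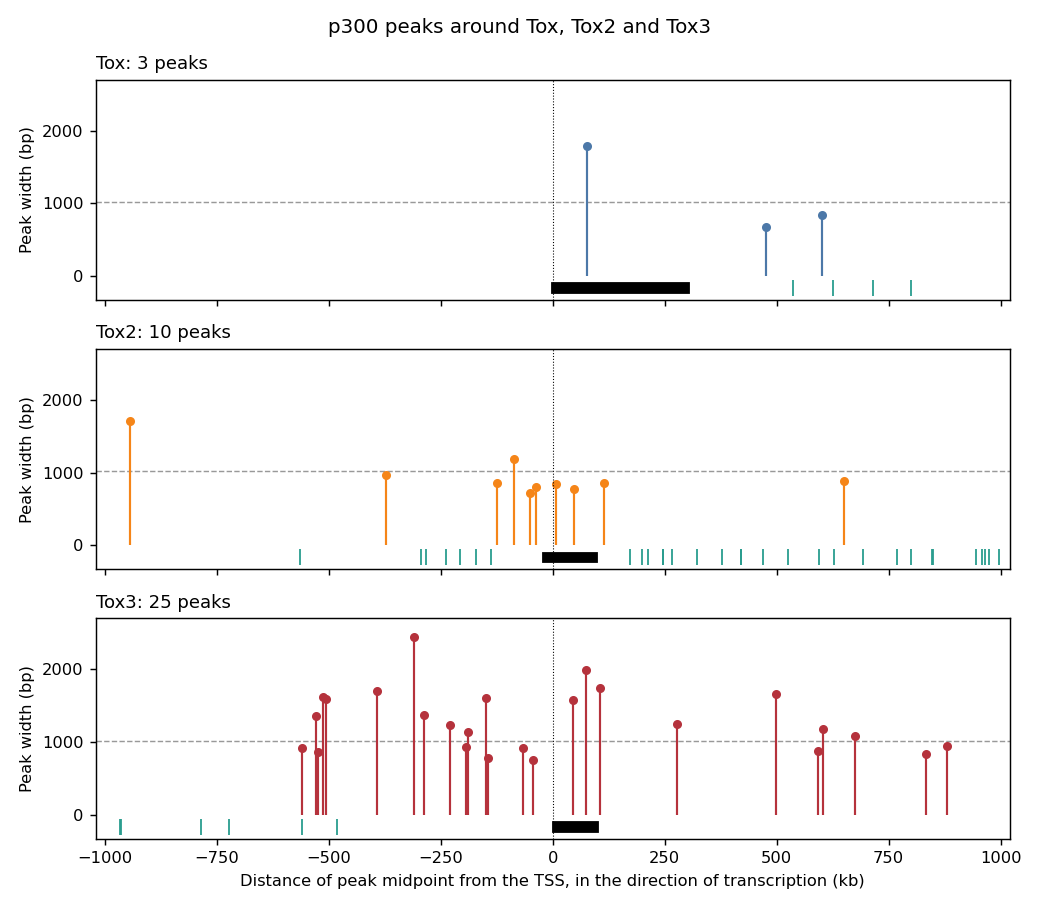
Position and width of every p300 peak given to Tox, Tox2 and Tox3. The horizontal axis is the distance of the midpoint from the TSS in kb, positive in the direction of transcription, and the height of each stem is the peak width in bp. The black bar is the gene body, green ticks are TSSs of other protein-coding genes and the dashed line is the median width of all peaks, 1017 bp. Tox3 has peaks on both sides, while the 1 Mb upstream of Tox is empty.

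The intragenic Tox3 peaks both lay in introns. Peak 6002 (92825474 to 92827049, 1576 bp) was in intron 1 and peak 6001 (92795764 to 92797757, 1994 bp) in intron 2. Another wide peak, number 6000 (92765251 to 92766990, 1740 bp), began downstream of the last exon, 106.0 kb from the TSS. All 3 exceeded the upper quartile of the widths of all peaks, 1260 bp.

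Farther downstream the peaks were sparser. Peak 5999 lay at 278.3 kb and peak 5998 at 498.2 kb, and a group of 5 peaks, numbers 5993 to 5997, lay between 592.2 and 879.3 kb. These 5 were 841 to 1182 bp wide with a median of 948 bp, and none exceeded the upper quartile. They stand in a long stretch without annotated protein-coding start sites, since the next one in that direction, that of the gene model Gm5356, is 1.16 Mb from the TSS of Tox3. The group nevertheless lay nearer to Gm5356 than to Tox3, at 281.4 to 568.4 kb from its start.

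The upstream flank was the denser side. Between the TSS of Tox3 and that of Chd9, which encodes a chromodomain helicase transcribed away from Tox3, 480.6 kb of sequence held 10 peaks, or 20.8 per Mb. They ran from peak 6003 at 44.7 kb to peak 6012 at 393.0 kb, and their widths had a median of 1180 bp. Of these, 7 peaks, numbers 6003 to 6009, formed the densest 200 kb of the Tox3 window, with midpoints 184.3 kb apart from first to last. The closest neighbours were peaks 6005 (783 bp) and 6006 (1609 bp), with 2434 bp between them. The widest peak at Tox3, number 6011 (93180016 to 93182456, 2441 bp), lay in the same interval, 309.1 kb upstream, and was wider than 98.6% of all peaks or as wide.

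A last group of 5 peaks, numbers 6013 to 6017, lay inside Chd9 (93352734 to 93578407) within 54.0 kb, at 506.1 to 560.1 kb from the TSS of Tox3. By distance these peaks, and 3 of the intergenic ones, were nearer to the start of Chd9 or of Gm6658, a gene model inside Chd9, than to that of Tox3. Tox3 had the nearest protein-coding start site for 12 of the 25 peaks, Chd9 for 5, Gm5356 for 5 and Gm6658 for 3. The same rule gave 25 peaks to Chd9 as well, 26 to Gm6658 and 14 to Gm5356. Which of the neighbours any of the Tox3 peaks acts on cannot be told apart from positions. Beyond peak 6017 no peak followed for 446.8 kb.

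Counted by the same rule for all 22367 protein-coding genes, the median was 4 peaks and the highest count was 53. As many as the 25 peaks of Tox3 were found for 103 genes, or 0.46%. The 10 peaks of Tox2 were reached by 14.4% of genes and the 3 peaks of Tox by 62.6%. These shares describe where the genes stand in the list, since Tox3 was picked from its count, and neighbouring genes share peaks, so the 103 genes are not separate loci. Of all genes, 0.671% had at least the 15 upstream peaks of Tox3.

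**Figure D2:**
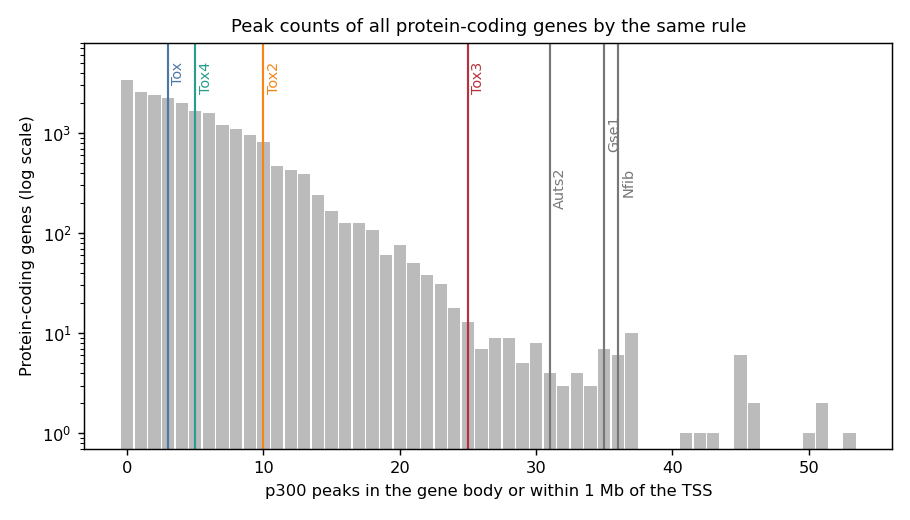
Number of p300 peaks in the gene body or within 1 Mb of the TSS for all 22367 protein-coding genes. The vertical axis is the number of genes on a log scale, and the lines mark Tox (3 peaks), Tox4 (5), Tox2 (10), Tox3 (25), Auts2 (31), Gse1 (35) and Nfib (36). Tox3 stands in the sparse tail of the distribution, Tox and Tox4 in its bulk.

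Tox3 was compared with 3 dense loci under the same rule. Nfib, which encodes a nuclear factor I protein of forebrain glia and neurons, had 36 peaks, Gse1, a coiled-coil protein gene, had 35, and Auts2, a gene linked to autism, had 31. The Tox3 peaks were fewer and less tightly packed. The densest 200 kb held 7 midpoints at Tox3, 10 at Nfib, 10 at Auts2 and 21 at Gse1. The median gap between neighbouring peaks was 35.9 kb at Tox3, 26.7 kb at Nfib, 27.9 kb at Auts2 and 9.31 kb at Gse1, against 126.9 kb over all neighbouring peaks of the genome. A stretch of 200 kb with at least 7 midpoints contained 10.9% of all peaks. Inside the gene lay 2 of the 25 Tox3 peaks, in a gene body of 101.1 kb that is a small part of the 2.0 Mb window. Gse1, whose gene body of 92.5 kb is similar in length, had 5 of 35 peaks inside it. Nfib had 15 of 36 in 415.6 kb and Auts2 29 of 31 in 1106 kb.

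Tox2 (ENSMUSG00000074607, chr2:163028861-163149906, plus strand) had 10 peaks, gathered near the start, with 5 within 100 kb of the TSS and 8 within 500 kb. Upstream, peaks 3668 to 3671 lay at 123.6, 86.1, 50.7 and 37.6 kb. Inside the gene, peak 3672 (163057299 to 163058139, 841 bp) was in intron 1, 6.62 kb from the TSS, the shortest distance of any peak to its Tox gene, and peak 3673 (163097420 to 163098192, 773 bp) was in intron 2. Peak 3674, 115.1 kb downstream, lay inside Jph2, a gene of cardiac membrane junctions. The annotated 5′ end of Tox2 reaches 22238 bp farther upstream than the start used here, and no peak lay between them.

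The densest 200 kb at Tox2 held 6 midpoints, 1 fewer than at Tox3, and ran from 123.6 kb upstream to 46.7 kb downstream of the TSS. As many were found in a 200 kb stretch around 15.4% of all peaks. The remaining peaks were far apart. Peak 3666 lay inside Ptprt, a receptor tyrosine phosphatase gene, at 942.9 kb upstream, peak 3667 was intergenic at 371.6 kb upstream, and peak 3675 lay inside Rims4, a gene of the presynaptic active zone, at 650.2 kb downstream. Tox2 sits among many genes, with 32 protein-coding start sites in its window including its own, against 7 for Tox3 and 5 for Tox. It had the nearest protein-coding start site for 4 of its 10 peaks. The others were nearest to Gtsf1l (2 peaks), Jph2, Kcnk15, Ptprt and Srsf6 (1 each). The same rule gave 10 peaks each to Gtsf1l, Ptprt and Srsf6, and 9 each to Jph2 and Kcnk15.

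Tox (ENSMUSG00000041272, chr4:6613500-6918704, minus strand) is the longest of the 3 genes at 305.2 kb and had the fewest peaks. Only peak 4123 (6839799 to 6841585) lay within it, in intron 1 at 77.3 kb from the TSS. At 1787 bp this peak was wider than 92.7% of all peaks or as wide. The other 2 were downstream and nearer to other genes. Peak 4122 (681 bp) at 476.0 kb was intergenic, with Nsmaf the nearest protein-coding start site at 60.6 kb. The start site of a gene that is not protein-coding was nearer, at 6.44 kb. Peak 4121 (836 bp) at 600.2 kb lay inside Sdcbp, which encodes the scaffold protein syntenin. By the same rule Nsmaf and Sdcbp had 4 peaks each.

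Upstream of Tox the list was empty. From peak 4123 to the next peak upstream, number 4124, 1.08 Mb held no peak, and the next protein-coding start site in that direction, that of Car8, is 1.25 Mb away. The window holds 0 unassembled bases. Such an upstream flank was common, as 31.2% of protein-coding genes had 0 peaks in the 1 Mb upstream of the TSS, and 563 of the 6609 gaps between neighbouring peaks (8.52%) were as long. Tox and Tox3 both stand in regions with few protein-coding genes, and had 0 and 15 upstream peaks. Their upstream flanks are unlike in gene content. No protein-coding start site lies within 1 Mb upstream of Tox, while that of Chd9 lies 480.6 kb upstream of Tox3. Of the 15 upstream peaks of Tox3, 5 lay inside Chd9. The list holds called peaks only, so weaker p300 signal upstream of Tox cannot be seen in it.

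The farthest peaks inside the 1 Mb limit lay at 879.3 kb for Tox3, 942.9 kb for Tox2 and 600.2 kb for Tox. The nearest outside it were at 1008 kb upstream of Tox3 (peak 6018), 1007 kb upstream of Tox (peak 4124) and 1557 kb upstream of Tox2 (peak 3665). A limit wider by a few kb would thus have added peaks at Tox3 and at Tox.

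Peak width was not used to choose the genes. The Tox3 peaks were 756 to 2441 bp wide with a median of 1228 bp (order-statistic 95% interval 926 to 1592 bp), and the 6591 peaks outside the family had a median of 1017 bp (1010 to 1025 bp). The Tox3 interval includes the median of the others. Among the Tox3 peaks, 11 of 25 (44.0%, exact Clopper-Pearson 95% interval 24.4 to 65.1%) exceeded the upper quartile of 1260 bp, against 24.9% of the other peaks. The dense loci gave similar shares, 38.9% at Nfib, 40.0% at Gse1 and 54.8% at Auts2. At Tox2, 8 of 10 peaks were narrower than the median of all peaks, and their own median was 856 bp (773 to 1183 bp). The 3 Tox peaks were 681, 836 and 1787 bp wide.

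**Figure D3:**
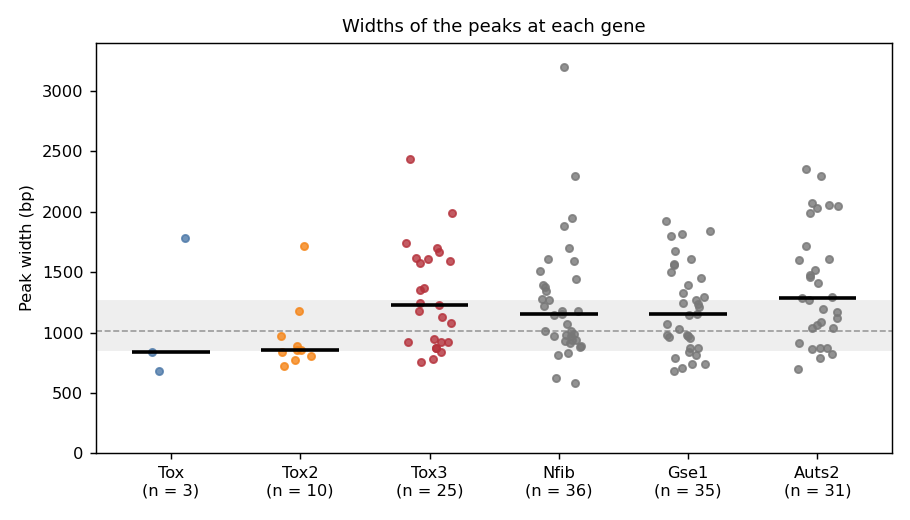
Width in bp of each p300 peak at Tox, Tox2 and Tox3 and at the dense loci Nfib, Gse1 and Auts2, with black bars at the medians. The dashed line is the median of all 6629 peaks (1017 bp) and the grey band their quartiles (860 and 1260 bp). The medians of Tox3 (1228 bp) and of the dense loci lie above the line, those of Tox (836 bp) and Tox2 (856 bp) below it.

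The wide Tox3 peaks had no single place in the locus. Of the 11 above the upper quartile, 4 lay within 500 kb downstream, of which 2 were inside the gene, 4 lay between Tox3 and Chd9, and 3 lay inside Chd9. The far downstream group had 0.

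The median GC content was 42.7% at Tox3 (order-statistic 95% interval 41.1 to 46.1%), 49.5% at Tox2 (47.2 to 52.1%) and 41.0% at Tox (range 37.6 to 41.6%), and the windows as a whole had 42.6, 46.3 and 39.3%. The median of the peaks outside the family was 45.2%. At Tox3, 16 of 25 peaks were at or below that value, and the lowest were the 2 intronic ones, at 37.8% each.

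A single Tox3 peak stood apart. Peak 6017 (93431789 to 93432713, 925 bp) had a GC content of 74.7%, the highest of all 6629 peaks, while the next highest at Tox3 was 55.4%. Its ratio of observed to expected CpG was 0.879, against a median of 0.228 over all peaks. It overlaps the exon of Gm6658, and its midpoint is 63 bp from the start of that gene model. It is the only one of the 38 peaks that overlaps a GENCODE exon or lies within 2.5 kb of an annotated start site. The authors removed such peaks with another gene annotation, which was not used here. Peak 6017 is counted among the peaks inside Chd9, and 24 Tox3 peaks remain without it.

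Short consensus motifs of factors active in the neocortex were searched as exact letters on both strands. They were the E boxes CAGCTG and CAGATG bound by proneural bHLH proteins, the homeodomain core TAATTA, the Nfi arm TTGGCA, the Nfi dimer made of TTGGC and GCCAA with 5 bases between them, which shares its letters with the arm, the Sox motif ACAAAG, the POU octamer ATGCAAAT, the T-box motif GGTGTGA and the Rfx arm GTTGCC. At least 1 of the E boxes was present in 21 of the 25 Tox3 peaks (84.0%), with an exact Clopper-Pearson 95% interval from 63.9 to 95.5%, while 88.7% of the peaks outside the family held them. Both an E box and TAATTA were present in 11 Tox3 peaks (44.0%), against 40.7% of the others.

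By motif, the Tox3 shares lay on both sides of those of the other peaks. CAGATG and TTGGCA were each found in 18 of 25 peaks (72.0%), against 74.8 and 60.6% of the other peaks. CAGCTG and ACAAAG were each found in 15 (60.0%), against 56.3 and 66.4%. TAATTA was present in 14 (56.0%, against 46.7%), the Rfx arm in 10 (40.0%, against 34.5%) and the T-box motif in 4 (16.0%, against 16.5%). The POU octamer was present in 6 (24.0%, interval 9.36 to 45.1%), against 12.9%. The Nfi dimer was in 0 of 25, which allows a share of up to 13.7%, and in 0.364% of the others. Exact letters leave out variant sites. The authors matched position weight matrices, which allow variants, and found Nfi motifs in a larger share of the same list. For all of the motifs searched here the interval at Tox3 included the share of the other peaks.

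**Figure D4:**
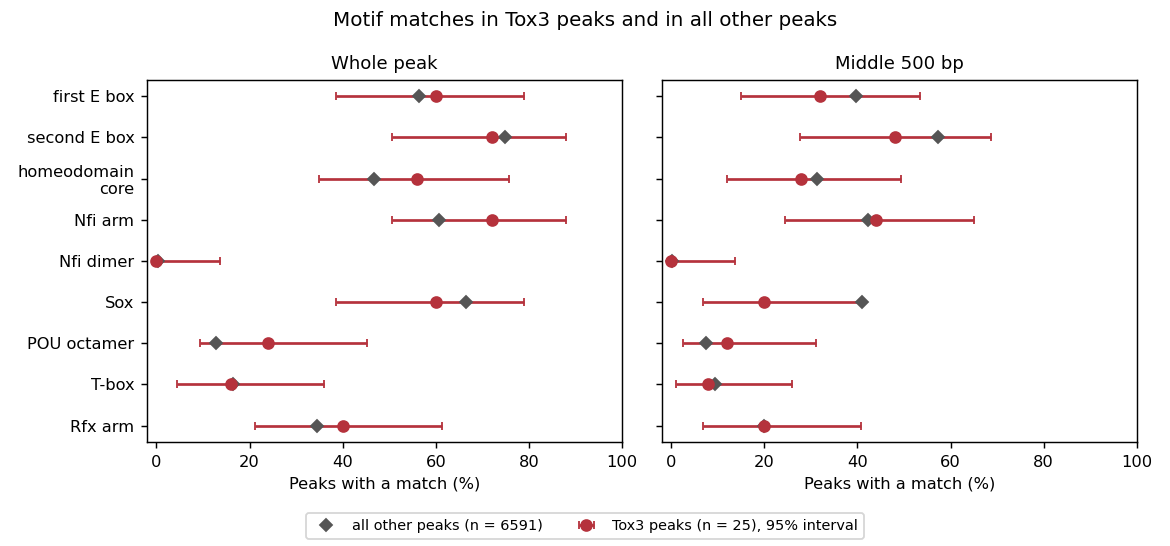
Share of peaks with at least 1 match to each motif, in percent, for the 25 Tox3 peaks (circles with exact 95% intervals) and the 6591 peaks outside the family (diamonds), over whole peaks and over the middle 500 bp. The first E box is CAGCTG and the second CAGATG. The diamonds fall inside the Tox3 intervals, except for the Sox motif in the middle 500 bp, where 20% at Tox3 stands against 41.0%.

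Wider peaks have more room for a match, so the middle 500 bp of each peak was also searched. There the Sox motif was found in 5 of 25 Tox3 peaks (20%, with an exact 95% interval from 6.83 to 40.7%), while 41.0% of the others had it, just outside that interval. This was the only motif for which that was so among the 9 searched, and over whole peaks the density of Sox matches was close, 1.02 per kb at Tox3 and 1.06 per kb elsewhere. Counting every motif except the Nfi dimer, the Tox3 peaks held 5.31 matches per kb, the Tox2 peaks 4.78, the Tox peaks 5.15 and the other peaks 5.44. Single Tox3 peaks ranged from 1 match (peaks 6003 and 6017) to 13 (peak 6011, which is also the widest).

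At Tox2, with 10 peaks, the Nfi arm was the most frequent motif, in 8 peaks (80.0%, with an exact 95% interval from 44.4 to 97.5% that includes the 60.6% of the peaks outside the family). TAATTA and ACAAAG were each in 2 (20%, interval 2.52 to 55.6%). For TAATTA the interval included the 46.7% of the peaks outside the family. The interval for ACAAAG did not include the 66.4% of the peaks outside the family. In the middle 500 bp ACAAAG was in 0 of 10 Tox2 peaks (interval 0 to 30.85%), against 41.0% of the others. Its density over whole peaks was 0.312 matches per kb at Tox2 and 1.06 per kb elsewhere. The Tox2 peaks had a lower median width, with an interval that included the 1017 bp of the others, and a higher median GC content. Whether width or GC content bears on the ACAAAG share was not tested. CAGATG was in 3 of 3 Tox peaks, for which the exact 95% interval begins at 29.2% and includes the 74.8% of the peaks outside the family. Peak 4122 held 4 copies and peak 4123 held 3. Peak 4123 also held 3 copies each of TAATTA and ACAAAG.

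The fourth family member, Tox4, had 5 peaks by the rule, all upstream, of which 0 lay within 100 kb of its TSS. The 21 listed HMG-box genes, Tox4 among them and the Sox genes and the 3 members not, had a median of 5 peaks, against 4 for all protein-coding genes, and a range from 0 to 12. Smarce1, a subunit of the BAF remodelling complex, and Tcf7l2, a Wnt effector, had 12 each. Tox3 was picked for its count, and the Sox genes, which also encode HMG-box proteins, were not counted here, so these values do not place Tox3 among HMG-box genes as a whole. Protein-coding genes on other chromosomes were ranked by likeness to Tox3 in number of peaks. Ties were ranked by peaks inside the gene, and then by midpoints in the densest 200 kb. The first 3 were Ak8 (25 peaks, 2 in the gene), Dnahc10 (25, 1) and Cel (25, 0). In their densest 200 kb these held 9, 13 and 8 midpoints, against 7 at Tox3. Ak8 and Cel are both on chromosome 2, so they may share peaks and need not be separate loci.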

How the data were processed

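p300 ChIP-seq of the embryonic day 14.5 dorsal cerebral wall was analysed from 1 library with an input control that was not analysed here. The authors aligned reads to mm9 with ELAND, kept unique alignments, and used MACS, given as version 1.4 in the submitters' notes, to call enrichment over input. The authors' list holds distal sites: their filters took out exonic regions, a 2.5 kb margin around each TSS and sites of uncertain mappability. The deposited file gives peak positions in bases, with no score or count, so depth per peak is unknown and intervals cover counting error only. The intervals also take the peaks as independent draws, which neighbouring peaks need not be.

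Peaks were joined to GENCODE vM1 genes (37273, of which 22367 protein-coding; mitochondrial genes left out) and to the sequence of NCBIM37, which is mm9, with Python 3.11.15, numpy 2.4.6, scipy 1.17.1 and matplotlib 3.10.9. With 1 library no test was made. Counts, densest stretches of 200 kb, widths, GC content and motif matches are given beside those of all genes or of the other peaks, with order-statistic or exact Clopper-Pearson 95% intervals. Counting, stretch and motif code was tested on simulated data. The members, the HMG-box list and the motifs were chosen with earlier results of these data known. Genes named are the members, the genes whose start site is nearest to a member peak, Tox4 and the 3 listed HMG-box genes with the most peaks, of which 1 is not reported here, 3 dense loci, the 3 genes most like Tox3 and, chosen after the values were seen, Car8 and Rims4. Sequences printed were those of the nearest, widest and closest peaks. Protein identity between the members was planned and not run. Alternatives changed the TSS, distance, peaks counted, assignment and sequence searched, and 1, leaving out peaks inside other genes, was added after seeing the data.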

Additional observations from a re-analysis of the deposited data

How the results depend on the processing

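Of 66 alternative values, 46 stayed within 1.5 times (counts), inside the 95% interval (medians and shares) or, for the medians of the 3 Tox peaks, which have no such interval, inside their range, and 20 did not. Dropping every peak narrower than the median left 16 peaks at Tox3, 2 at Tox2 and 1 at Tox, and 1 midpoint in 200 kb at Tox2 and at Tox. Keeping only peaks whose nearest protein-coding start site is that of the gene left 12, 4 and 1 in the same order, and a median GC content of 41.0% at Tox3. The 1 peak then left at Tox is the wide one in intron 1, so the median there went from 836 to 1787 bp in width and from 41.0 to 37.6% in GC content. These alternatives count fewer peaks by construction. Within 500 kb Tox3 had 15 peaks, and the share of genes with as many became 0.599% for Tox3, 6.07% for Tox2 and 48.8% for Tox. Over all annotated genes the share for Tox was 61.0%. The middle 500 bp is shorter sequence, and fewer Tox3 peaks had a match there. Their share fell to 32.0% for CAGCTG, 48.0% for CAGATG, 28.0% for TAATTA, 44.0% for TTGGCA, 20% for ACAAAG and 20% for GTTGCC. The shares of the peaks outside the family also fell, to 39.7, 57.4, 31.35, 42.3, 41.0 and 19.9% in the same order. Regulatory domains drawn between protein-coding genes held 20 peaks at Tox3, 7 at Tox2 and 2 at Tox, and leaving out peaks inside other protein-coding genes, an alternative chosen after seeing the data, left 20, 7 and 2. With 1 library, no value has a replicate check. No paired analysis was possible because each group has 1 sample.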
